A study of Mus musculus with 7 samples.

Results

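Accessible chromatin was examined at 8 genes of the myeloid programme, Cebpa, Cebpb, Cebpe, Gfi1, Mpo, Elane, Lyz2 and Itgam, in B-lineage progenitors of mice, by 7 libraries of ATAC-seq. The rule below used gene positions and no measured value. Peaks were assigned to a gene when they overlapped its body in the GENCODE M21 annotation or the 20 kb on either side, or the 50 kb on either side of Cebpa. By this rule 467 of 647973 peaks lay at the 8 genes, and when overlapping peaks of all libraries were merged they formed 98 of 145247 union regions.

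ATAC-seq marks open chromatin, and peaks are places where the sequenced fragments pile up above background. WT libraries came from mice of genotype Ergfl/fl and were of pre-proB, proB and preB cells. The Erg KO pre-proB library came from Rag1CreT/+;Ergdelta/delta mice, in which Cre recombinase made under Rag1 removes Erg, an ETS-family transcription factor, from lymphoid progenitors onward. Rescue libraries came from Rag1CreT/+;Ergdelta/delta;IgHVH10tar mice, which carry a rearranged immunoglobulin heavy chain allele, at the same 3 titled stages. All groups therefore carried a targeted Erg allele, floxed in WT and deleted in the others. Each of the 7 groups was 1 library, so there was no replicate, no test was run between libraries, and the spread between animals is unknown. The stage of the Rescue libraries was taken from the titles, and the source names disagreed in each case, calling the library titled pre-proB proB cells, the one titled proB preB cells and the one titled preB pre-proB cells.

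C/EBP factors bind DNA as dimers and direct progenitors towards granulocytes and monocytes, with Cebpa required early, Cebpe late and Cebpb during inflammation and in monocytes. Mpo, Elane and Lyz2 encode antimicrobial proteins of granules and lysosomes that are made under their control. B-cell progenitors descend from multipotent cells in which part of this programme is accessible, and commitment to the B lineage is accompanied by its silencing.

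The lists held between 76465 peaks in WT preB and 105649 in Rescue pre-proB. The background pileup, which stands for the relative depth, was lowest in Rescue proB at 3.49 and in WT preB at 3.56 and highest in Rescue pre-proB at 4.6. The weakest called peak had a fold between 2.32 and 2.63, and weakly open regions may therefore lack a peak. Of 10 B-lineage marker genes, promoters with a peak numbered 9, 5 and 6 in the WT, Erg KO and Rescue pre-proB libraries and 10 in each proB and preB library. Of 10 T-lineage genes there were 6, 6 and 4 in WT in stage order, 8 in the Erg KO library, then 8, 6 and 4 in Rescue, and of 9 matched erythroid genes there were 4 or 5 in every library. The Erg gene body held 30 to 40 peaks in each library, and as the coordinates of the deleted exon were not used, these check nothing about the deletion.

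In WT and, by title, in Rescue, the number of myeloid peaks was highest in the pre-proB library, and the pre-proB lists were also the longest of their genotype. WT pre-proB and Erg KO pre-proB each had 78 and Rescue pre-proB had 80, whereas WT proB had 60, WT preB 45, Rescue proB 67 and Rescue preB 59. WT preB had both the fewest myeloid peaks and the shortest list. When every list was limited to its strongest 76465 peaks, WT had 62, 50 and 45 in stage order, Erg KO had 61, and Rescue had 63, 60 and 53. By source name, the Rescue library of pre-proB cells is the one with 59 peaks, the fewest of the Rescue libraries. Of the 98 regions, 7 overlapped the promoter of a member, taken as the 1000 bp on either side of a transcription start site, and 9 overlapped only promoters of neighbouring genes. Outside promoters 16 lay in a member gene, 32 in the body of a neighbour and 34 between genes.

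**Figure D1:**
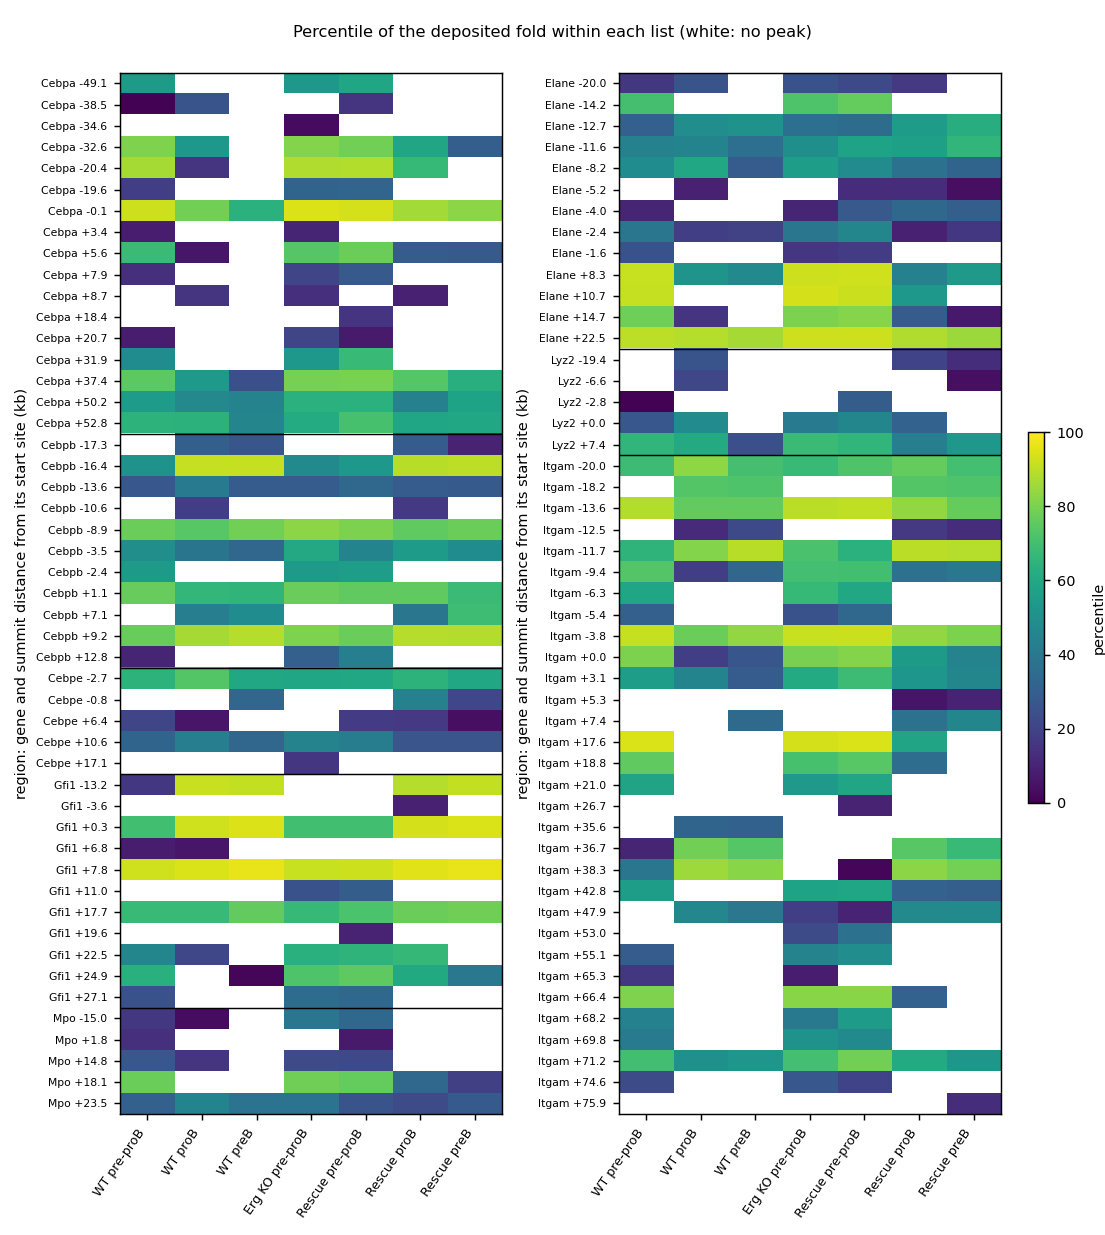
Percentile of the deposited fold within its own list (colour, 0 to 100) for each of the 98 regions (rows, named by gene and by the distance in kb of the summit from the start site of that gene, negative upstream) in each of the 7 libraries (columns), with white where no peak was called. The 3 pre-proB columns resemble each other, and bright cells at Cebpa -20.4, Elane +10.7 and Itgam +17.6 are dark or white in the WT proB, WT preB and Rescue preB columns and intermediate in Rescue proB, at percentiles 67.1, 53.5 and 58.5. Cells at Cebpb -16.4 and Gfi1 -13.2 are brighter in the proB and preB columns than in the pre-proB columns.

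Cebpa, which encodes the factor that starts granulocyte and monocyte commitment, was open at its promoter in every library and most strongly at the pre-proB stage. The gene (ENSMUSG00000034957) lies on chromosome 7 from 35119293 to 35121928 of mm10, on the plus strand. Its promoter peak ran from 35117736 to 35121666 in WT pre-proB, over the start site and most of the gene. The fold of that peak, the deposited ratio of the summit pileup to the background of the library, was 59.3, 71.1 and 69.0 in the WT, Erg KO and Rescue pre-proB libraries. It was 23.3 and 14 in WT proB and preB and 35.4 and 34.7 in Rescue proB and preB. The 3 pre-proB values lay above the 4 others without overlap. As folds of different libraries rest on different backgrounds, the percentile of a fold among all peaks of its own list was used beside it. The Cebpa promoter stood at percentile 92.2, 94.6 and 93.5 in the WT, Erg KO and Rescue pre-proB libraries. It stood at 78.8 in WT proB and 63.8 in WT preB, and at 86.3 in Rescue proB and 82.8 in Rescue preB. In a bulk library fewer cells with an open site and less opening per cell cannot be told apart.

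**Figure D2:**
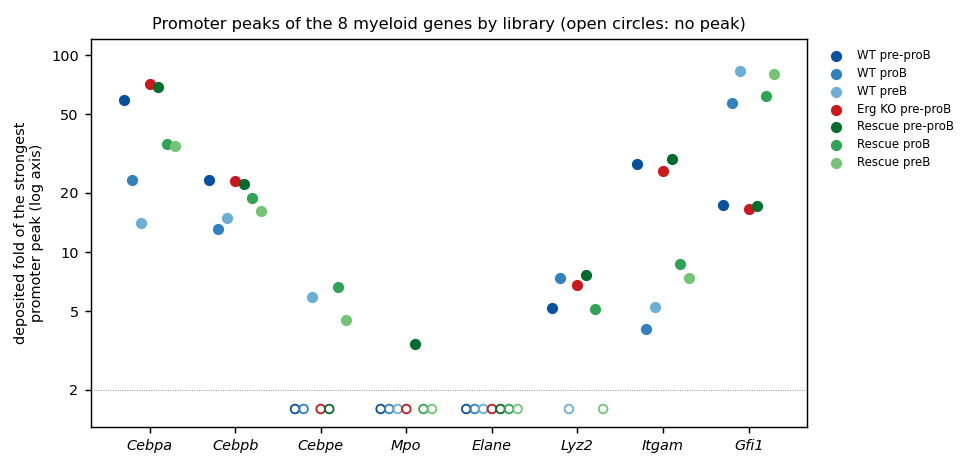
Deposited fold of the strongest promoter peak (vertical log axis) at each of the 8 genes in the 7 libraries, with filled points for called peaks and open circles at the bottom where no promoter peak was called. The pre-proB points of Cebpa and Itgam lie above those of proB and preB, the pre-proB points of Gfi1 lie below, and Elane has no point.

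Beyond the promoter, Cebpa had the strongest region of its window 20.4 kb upstream, between genes, from 35098342 to 35099288. Its fold was 39.9, 43.2 and 46.5 in the WT, Erg KO and Rescue pre-proB libraries. WT proB had a peak of fold 3.88, Rescue proB had one of fold 13.1, and WT preB and Rescue preB had none. The region was thus strong in all 3 pre-proB libraries, weak in WT proB and intermediate in Rescue proB. A region 32.6 kb upstream showed the same order, with folds of 28.3, 29.0 and 26.3 in WT, Erg KO and Rescue pre-proB, 8.49 in WT proB, 10 in Rescue proB, 5.36 in Rescue preB and none in WT preB. Regions other than the promoter peaks, the strongest region outside promoters of each gene and those 20 to 50 kb downstream of Cebpa were chosen after their values were seen.

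Downstream, where a myeloid enhancer of Cebpa is known, 4 regions lay more than 20 kb past the gene. The region 37.4 kb from the start site, from 35156236 to 35157078, was present in every library. Its fold was 21.5, 25.7 and 27.9 in the WT, Erg KO and Rescue pre-proB libraries, and it was 8.68 and 5.04 in WT proB and preB and 17.4 and 13 in Rescue proB and preB. The pre-proB libraries were again the 3 highest, and each Rescue library lay above the WT library of its titled stage. The region 31.9 kb from the start site had a peak in the 3 pre-proB libraries alone, with folds of 8.53, 9.34 and 15.5 in WT, Erg KO and Rescue. Those 50.2 and 52.8 kb from it were in all 7 libraries, with folds from 6.68 to 13.6 and from 7.89 to 18.0 and no separation of the stages.

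The 100 bases on either side of the summit of the upstream region (chr7:35098804-35099004) and of the region 37.4 kb downstream (chr7:35156543-35156743) are shown as the strongest distal regions on either side of Cebpa in the pre-proB libraries. They are from the plus strand of GRCm38 and are centred on the WT pre-proB summit. Capitals mark the RUNX letters TGTGGT and, in the downstream region, the ETS letters CAGGAAGT on either strand, which overlap there by 2 bases.
Cebpa 20.4 kb upstream: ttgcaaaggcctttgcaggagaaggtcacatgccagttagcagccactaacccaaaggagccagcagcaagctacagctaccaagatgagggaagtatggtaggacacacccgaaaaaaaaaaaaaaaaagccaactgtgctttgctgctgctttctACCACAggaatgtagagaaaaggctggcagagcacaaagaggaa
Cebpa 37.4 kb downstream: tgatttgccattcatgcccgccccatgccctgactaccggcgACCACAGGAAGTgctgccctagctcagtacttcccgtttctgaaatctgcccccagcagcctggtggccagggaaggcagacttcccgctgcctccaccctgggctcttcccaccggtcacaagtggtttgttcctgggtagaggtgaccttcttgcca

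In all, Cebpa had 17 regions. The WT, Erg KO and Rescue pre-proB libraries held 14, 15 and 14 of them, against 9 and 4 in WT proB and preB and 8 and 6 in Rescue proB and preB. Of the 17, 8 were in pre-proB libraries only and none was in proB or preB libraries only. Most of the 8 were weak, as 6 had no fold above 5.54.

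Cebpb, a C/EBP factor used in macrophages and in emergency granulocyte production, did not follow Cebpa. The gene (ENSMUSG00000056501) lies on chromosome 2 from 167688915 to 167690418, on the plus strand. Its promoter was open in every library, with folds of 23.3, 13.1 and 14.9 in WT from pre-proB to preB, 22.9 in the Erg KO library, and 22.2, 18.9 and 16.1 in Rescue in stage order. Summits of this wide peak lay up to 1164 bp apart. The promoter percentile ran only from 65.4 to 77.0, and the pre-proB values were the 3 highest by fold. The strongest distal region, 16.4 kb upstream in an intron of Tmem189 from 167672077 to 167672985, had the opposite order. Its fold was 9.11, 7.88 and 9.47 in the WT, Erg KO and Rescue pre-proB libraries, and it was 51.7 and 61.6 in WT proB and preB and 44.3 and 55.7 in Rescue proB and preB. It stood near the middle of the pre-proB lists, at percentile 47.3 to 53.2, and at percentile 89.4 to 91.4 in the 4 others. A region 9.2 kb downstream was likewise lower at pre-proB, with folds of 23.5, 27.7 and 23.9 in WT, Erg KO and Rescue, than at the later stages, with folds of 36.9 to 52.4. Of the 11 Cebpb regions 6 were in all 7 libraries, and every library held 8 or 9.

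The region upstream of Cebpb (chr2:167672385-167672585) is shown as a region of higher fold at the later stages that was present in all 7 libraries. Capitals mark the E2A letters CAGCTG, which occur 3 times.
Cebpb 16.4 kb upstream: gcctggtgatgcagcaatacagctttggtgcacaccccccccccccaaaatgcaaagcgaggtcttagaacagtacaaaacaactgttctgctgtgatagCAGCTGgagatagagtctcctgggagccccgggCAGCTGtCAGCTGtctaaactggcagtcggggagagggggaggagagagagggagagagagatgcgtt

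Cebpe, which encodes the C/EBP factor needed for the late granules of neutrophils, showed little accessibility. The gene (ENSMUSG00000052435) occupies chromosome 14 from 54710360 to 54712174 of the minus strand. A promoter peak was called in WT preB with a fold of 5.92, in Rescue proB with 6.68 and in Rescue preB with 4.54, and in no other library. It lay 0.8 kb upstream of the start site. No pre-proB library had it. The strongest region, 2.7 kb upstream between genes from 54713873 to 54715251, was in all 7 libraries with folds from 11.2 to 17.7, and here the 3 pre-proB libraries with 14, 11.2 and 11.6 overlapped the others. Of 5 Cebpe regions 2 were in all libraries.

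Gfi1 encodes a zinc finger repressor that is needed for neutrophils and also acts in lymphoid progenitors. The gene (ENSMUSG00000029275) occupies chromosome 5 from 107716657 to 107726036 of the minus strand. Its promoter was open in all 7 libraries and was much stronger at proB and preB. The fold was 17.3, 16.5 and 17.2 in the WT, Erg KO and Rescue pre-proB libraries, against 56.9 and 83.3 in WT proB and preB and 61.7 and 79.8 in Rescue proB and preB. The 3 pre-proB values were close to each other and far below the rest. This peak also covered the start of A430072P03Rik, an overlapping gene on the other strand.

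The strongest Gfi1 region of all was in an intron 7.8 kb downstream of the start site, from 107717243 to 107718749. Its fold was 62.4, 65.0 and 101.0 in WT from pre-proB to preB, 55.5 in the Erg KO library, and 63.6, 76.0 and 102.0 in Rescue in stage order. Its percentile was at least 91.6 in every library, so this intron was among the strongest peaks throughout. In contrast, a region 13.2 kb upstream was all but confined to the later stages. It had folds of 52.4 and 60.1 in WT proB and preB and 41.9 and 59.6 in Rescue proB and preB, a peak of fold 4.26 in WT pre-proB and no peak in Erg KO or Rescue pre-proB. On the far side, a region 24.9 kb downstream was stronger at pre-proB, with folds of 13.4, 18.5 and 21.8 in WT, Erg KO and Rescue. It had no peak in WT proB, one of fold 3.29 in WT preB, and folds of 10.5 and 6.6 in Rescue proB and preB. A region 22.5 kb downstream did not separate the stages, since Rescue proB with a fold of 12.9 lay above WT pre-proB with 7.95.

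**Figure D3:**
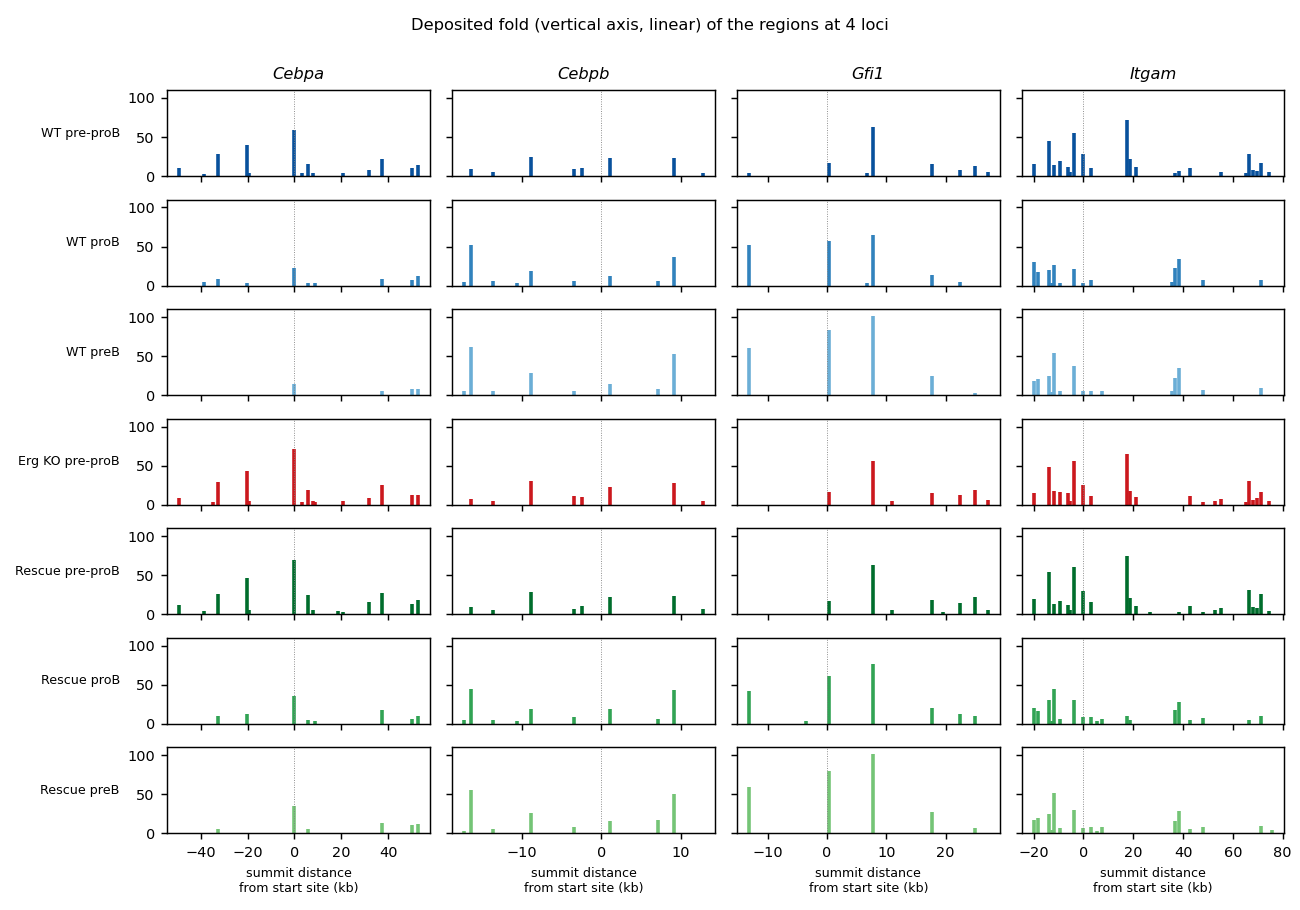
Deposited fold (vertical linear axis, 0 to 110) of every region at Cebpa, Cebpb, Gfi1 and Itgam (columns) in each library (rows), drawn at the distance in kb of its summit from the start site. The Cebpa lines at 20.4 and 32.6 kb upstream shrink or vanish outside the pre-proB rows. Those at 50.2 and 52.8 kb downstream change less, and their pre-proB and later values overlap. The lines of Gfi1 at 13.2 kb upstream and of Itgam near 38 kb downstream are tall in the proB and preB rows only. The Erg KO row resembles the 2 other pre-proB rows.

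The granule genes had few peaks of their own. Mpo encodes myeloperoxidase, the main enzyme of neutrophil primary granules. The gene (ENSMUSG00000009350) lies on chromosome 11 from 87793581 to 87804413, on the plus strand. Its only peak within the promoter window was a weak one in Rescue pre-proB, with a fold of 3.4 at percentile 7.1, near a start site inside the gene. WT pre-proB had a peak at the same place, with a fold of 4.07 at percentile 13.3, that began just past the window. Both were near the calling limit, and the Rescue peak was not kept in lists of equal length or at a −log10 q of at least 10. The strongest region of the window lay 18.1 kb downstream of the start site, in an intron of the neighbouring peroxidase gene Lpo, from 87811402 to 87811953. Its fold was 24.6, 24.4 and 23.2 in the WT, Erg KO and Rescue pre-proB libraries, whereas Rescue proB had 5.35, Rescue preB 4.33, and WT proB and WT preB had no peak. The pre-proB libraries were alike and lay far above the later ones. The other 4 Mpo regions had no fold above 6.83.

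Elane, the gene of neutrophil elastase, had no promoter peak in any library. The gene (ENSMUSG00000020125) lies on chromosome 10 from 79886247 to 79888215, on the plus strand, between Prtn3, which encodes a related protease, and Cfd, and no peak touched its body. Downstream of Cfd, however, stood some of the strongest pre-proB regions of the set. The region 10.7 kb from the Elane start site, in an intron of Med16 from 79896006 to 79898406, had folds of 55.4, 63.9 and 60 in the WT, Erg KO and Rescue pre-proB libraries. It had a peak of fold 8.46 in Rescue proB and none in WT proB, WT preB or Rescue preB. A region 14.7 kb away was similar, with folds of 25, 26.8 and 30.9 in WT, Erg KO and Rescue pre-proB, 3.88 in WT proB, 4.9 in Rescue proB, 3.51 in Rescue preB and none in WT preB.

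The region 8.3 kb from the Elane start site had folds of 56.6, 59.4 and 65.6 in WT, Erg KO and Rescue pre-proB, and between 6.68 and 9.7 in the 4 later libraries. The summits of the later peaks lay up to 1647 bp from the pre-proB summit, and WT proB, WT preB and Rescue preB had a peak only at the other site, so these folds do not measure the same site. A region 14.2 kb upstream, in Plppr3, was in the 3 pre-proB libraries alone with folds of 17.8, 18.5 and 23.2. Of the 13 Elane regions, 6 were in all libraries and included the promoters of the neighbours Plppr3 and Med16. The Med16 promoter peak, with folds from 39.8 to 63.3, varied far less between the stages than the regions beside it.

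Lyz2 encodes lysozyme, a bacteriolytic enzyme of macrophages and neutrophils. The gene (ENSMUSG00000069516) occupies chromosome 10 from 117277331 to 117282321 of the minus strand, beside the related gene Lyz1. Its promoter had a weak peak in 5 libraries, with folds of 5.23 and 7.38 in WT pre-proB and proB, 6.78 in the Erg KO library, and 7.68 and 5.12 in Rescue pre-proB and proB. WT preB and Rescue preB had none. No order of the genotypes or of pre-proB and proB was visible here. The strongest Lyz2 region, 7.4 kb downstream of the start site and past the end of the gene, from 117274458 to 117275191, was in all 7 libraries, with folds of 14.7, 15.4 and 14.7 in WT, Erg KO and Rescue pre-proB, 10.9 and 5.04 in WT proB and preB and 6.46 and 9.49 in Rescue proB and preB. Reads from near-identical stretches of Lyz1 and Lyz2 could be placed at either gene.

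The regions of the granule genes (chr11:87811546-87811746, chr10:79896852-79897052 and chr10:117274859-117275059) are shown because they reached the highest percentile outside promoters at Mpo, Elane and Lyz2, at Elane by a narrow margin over the region 8.3 kb downstream, 93.4 against 92.9. Capitals mark the E2A letters CAGCTG at Elane and the C/EBP letters TTGCNNCAA at Lyz2, and none of the searched letters was in the Mpo window.
Mpo 18.1 kb downstream: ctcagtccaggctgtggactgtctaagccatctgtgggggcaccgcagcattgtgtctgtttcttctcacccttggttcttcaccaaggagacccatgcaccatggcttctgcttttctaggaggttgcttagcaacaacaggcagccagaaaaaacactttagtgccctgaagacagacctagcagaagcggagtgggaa
Elane 10.7 kb downstream: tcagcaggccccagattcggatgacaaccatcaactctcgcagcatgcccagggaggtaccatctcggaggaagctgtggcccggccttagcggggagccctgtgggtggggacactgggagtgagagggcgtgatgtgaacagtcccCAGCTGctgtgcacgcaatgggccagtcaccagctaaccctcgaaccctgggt
Lyz2 7.4 kb downstream: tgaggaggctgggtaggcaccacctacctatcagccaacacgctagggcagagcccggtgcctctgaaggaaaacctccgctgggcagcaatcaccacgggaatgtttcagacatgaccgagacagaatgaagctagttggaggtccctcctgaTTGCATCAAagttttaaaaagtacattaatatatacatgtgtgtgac

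Itgam encodes CD11b, the alpha chain of the Mac-1 integrin and the usual surface marker of myeloid cells. The gene (ENSMUSG00000030786) lies on chromosome 7 from 128062640 to 128118491, on the plus strand. Its promoter had a peak in every library but was strong at pre-proB only. The fold was 27.9, 25.7 and 29.8 in the WT, Erg KO and Rescue pre-proB libraries, against 4.06 and 5.26 in WT proB and preB and 8.69 and 7.43 in Rescue proB and preB. The strongest region, in an intron 17.6 kb downstream from 128079845 to 128080724, separated the libraries further. Its fold was 71.5, 64.7 and 74.2 in the WT, Erg KO and Rescue pre-proB libraries, Rescue proB had a peak of fold 9.8, and WT proB, WT preB and Rescue preB had none. At percentile 93.6 to 94.5 it was one of the strongest regions of the set in the pre-proB lists, and its 7-library profile resembled that of the Elane region 10.7 kb downstream.

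The Itgam intron region (chr7:128080124-128080324) is shown as the strongest pre-proB region of a member gene body. Capitals mark TGTGGT, the RUNX letters, and CAGCTG, the E2A letters.
Itgam 17.6 kb downstream: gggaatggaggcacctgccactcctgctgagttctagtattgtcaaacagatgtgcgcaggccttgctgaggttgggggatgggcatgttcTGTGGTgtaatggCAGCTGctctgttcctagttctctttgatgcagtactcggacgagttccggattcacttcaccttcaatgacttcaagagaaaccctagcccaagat

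The same gene also held regions of the opposite kind. In the introns, 36.7 and 38.3 kb downstream of the start site, WT proB had folds of 23.1 and 34.5, WT preB 21.9 and 34.6, Rescue proB 17.8 and 28.1, and Rescue preB 15.7 and 28.3. WT pre-proB had 3.88 and 6.78 there, Rescue pre-proB had only the latter with 2.86, and Erg KO pre-proB had neither. A region 18.2 kb upstream was absent from the 3 pre-proB libraries and had folds of 16.9 to 20.6 in the 4 others. Itgam thus held regions of both kinds within a single locus. It had the most regions of the 8 genes, 31, of which 10 were in pre-proB libraries only and 6 in proB or preB libraries only. Some of the former lay in Itgax, the CD11c gene next to it. The Itgax promoter region, 66.4 kb from the Itgam start site, had folds of 28.5, 30.4 and 31.6 in WT, Erg KO and Rescue pre-proB and 5.12 in Rescue proB.

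Over the 98 regions the distribution among libraries was set beside that of all 145247 regions. In all 7 libraries were 31 regions (31.6%, Wilson 95% interval 23.3 to 41.4%), beside 32.0% of all regions. In the 3 pre-proB libraries and no other were 17 (17.3%, 11.1 to 26%), beside 11.5%, and in the 4 proB and preB libraries and no other were 4 (4.08%, 1.6 to 10%), beside 5.19%. In 1 or more pre-proB libraries and in no later library were 28 (28.6%, 20.6 to 38.2%), beside 22.5%. The reverse, 1 or more later libraries and no pre-proB library, held for 13 (13.3%, 7.92 to 21.4%), beside 23.5%, and this was the share farthest from its background. Intervals cover counting error only and treat regions as independent, which regions of the same gene are not. The last set came from Itgam with 6, Cebpb with 3, Lyz2 with 2 and Cebpe and Gfi1 with 1 each, and none came from Cebpa, Mpo or Elane. With the Rescue stages taken from the source names, the 28 regions of 1 or more pre-proB libraries and no later one would number 5, and the 13 of the reverse kind would number 6. With lists of equal length the same counts were 20 and 15 of the 83 regions that remained at the 8 genes. Regions in all 7 libraries numbered 19 of 98 when at least 50% of a region had to be covered. Shares over all regions are not given for these settings or for the source names.

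Whether loss of Erg altered the myeloid loci at a fixed stage was asked by setting Erg KO beside WT pre-proB. The strong myeloid regions were the same in both. Of the 78 WT pre-proB peaks 8 had no Erg KO peak (10.3%, 5.29 to 19.0%), beside 6.88% of the whole list, and of the 78 Erg KO peaks 7 had no WT peak (8.97%, 4.42 to 17.4%), beside 13.6%. The unshared ones were weak, with a median percentile of 11.9 in the WT list and 18.6 in the Erg KO list, against 55.8 and 60.2 for shared peaks. The strongest peak that Erg KO lacked was the Itgam region 38.3 kb downstream, at percentile 39.4 in WT. The strongest that WT lacked was 11.0 kb downstream of the Gfi1 start site, at percentile 25.3 in Erg KO.

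Fold was also compared in regions held by both libraries, as the log2 ratio less its median over all shared regions. At the 67 shared myeloid regions the median was 0.03 (quartiles -0.14 and 0.20) for Erg KO over WT. None differed 2-fold in either direction, beside 0.185% of all 84912 shared regions at least 2-fold higher in Erg KO and 0.332% at least 2-fold lower. By this measure no myeloid region shared by WT and Erg KO pre-proB changed 2-fold between these 2 libraries. Such changes made up only 0.517% of all shared regions, so their absence among 67 regions is not read as particular to the myeloid genes.

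**Figure D4:**
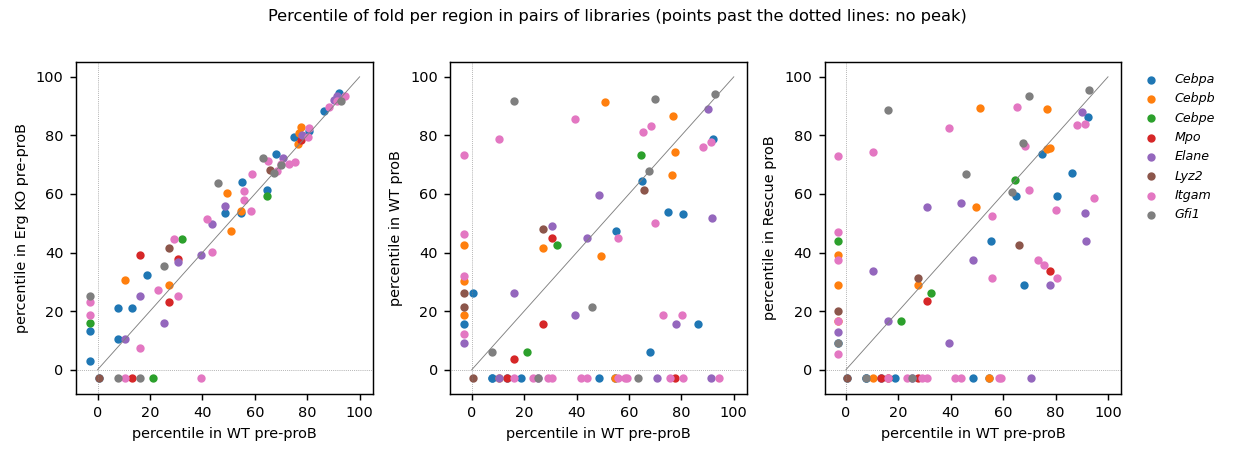
Percentile of fold in WT pre-proB (horizontal) against that in Erg KO pre-proB, WT proB and Rescue proB (vertical, left to right) for the myeloid regions with a peak in either library, coloured by gene, with points past the dotted lines where a library had no peak. The Erg KO points follow the diagonal, and those without a partner stand at percentile 39.4 or below. Points of WT proB scatter widely. Of the regions above percentile 90 in WT pre-proB, only Elane +10.7 and Itgam +17.6 have no WT proB peak.

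Rescue pre-proB, the other Erg-deficient library of this titled stage, was also close to WT. Of the WT peaks 5 had no Rescue peak (6.41%, 2.77 to 14.1%), beside 5.88% of the list, and of the 80 Rescue peaks 7 had no WT peak (8.75%, 4.3 to 17.0%), beside 15.6%. At the 70 shared regions the median centred log2 ratio was 0.0 and 1 was at least 2-fold lower in Rescue, the Itgam region 38.3 kb downstream, while none was higher. With the Rescue library whose source name reads pre-proB in its place, 43.6% of WT pre-proB myeloid peaks had no Rescue peak and 22% of Rescue myeloid peaks had no WT peak. The whole-list shares of that pairing are not given, so these values are not read as particular to the myeloid genes. At Pax5, a factor of B-lineage commitment, the promoter lacked a peak in the libraries titled Rescue pre-proB and Erg KO pre-proB. The other libraries, WT pre-proB among them, had such a peak, so its absence does not mark the pre-proB stage. Of the 10 B-lineage genes, 6 had a promoter peak in the library titled Rescue pre-proB, against 10 in those titled Rescue proB and preB. Over all shared regions 0.471% were at least 2-fold lower and 0.196% higher. Between the Erg-deficient libraries, 6 of 78 Erg KO peaks (7.69%, 3.57 to 15.8%) had no Rescue pre-proB peak, beside 6.57%, a share that was 1.67% at a −log10 q of at least 10, and 9 of 80 Rescue pre-proB peaks (11.2%, 6.03 to 20%) had no Erg KO peak, beside 9.81%. These comparisons share libraries with each other and are not independent.

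The step from pre-proB to proB in WT was larger. Of the WT pre-proB myeloid peaks 30 of 78 had no WT proB peak (38.5%, 28.4 to 49.6%), beside 34.1% of the list, and 12 of 60 WT proB peaks had no pre-proB peak (20%, 11.8 to 31.8%), beside 31.9%. The unshared pre-proB peaks included strong ones, with a median percentile of 42.8 and a highest of 94.5. By gene they numbered 12 of 22 at Itgam, 6 of 14 at Cebpa, 5 of 14 at Elane and 2 of 5 at Mpo. Cebpb had 2 of 8, Gfi1 2 of 8, Lyz2 1 of 3 and Cebpe 0 of 4. The share of myeloid peaks lost was thus near that of the whole list, while the share of proB peaks without a pre-proB peak was below its own background. With lists of equal length the myeloid shares were 40.3% (29.0 to 52.7%) and 26.0% (15.9 to 39.6%). With a reciprocal overlap of 50% required, they were 60.3% and 48.3%. Whole-list shares are not given at these 2 settings, so the difference from background was not examined there.

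Among 46 regions held by both WT libraries, 12 were at least 2-fold lower in proB (26.1%), beside 15.0% of all shared regions, and 5 were at least 2-fold higher (10.9%), beside 14.8%. Lower ones were 5 at Cebpa, 5 at Itgam and 2 at Elane, of which the Elane region 8.3 kb downstream compares separate summits. At Cebpa they included the promoter, with a centred log2 ratio of -1.28, and the region 20.4 kb upstream, with -3.29. The 5 higher ones were the upstream Cebpb region with 2.57, the Gfi1 promoter with 1.79, the Gfi1 region 13.2 kb upstream with 3.69, and the Itgam intron regions with 2.64 and 2.42.

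From WT proB to preB, 19 of 60 proB peaks had no preB peak (31.7%, 21.3 to 44.2%), beside 26.7%, and 3 of 45 preB peaks had no proB peak (6.67%, 2.29 to 17.9%), beside 10.7%. The first share was 20% with lists of equal length and 10.3% at a −log10 q of at least 10. Those lost were weak, with a median percentile of 15.5. They included 6 at Cebpa, 3 at Elane, 3 at Lyz2 and 2 at Mpo, so that WT preB kept 4 Cebpa, 1 Mpo and 1 Lyz2 regions.

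**Figure D5:**
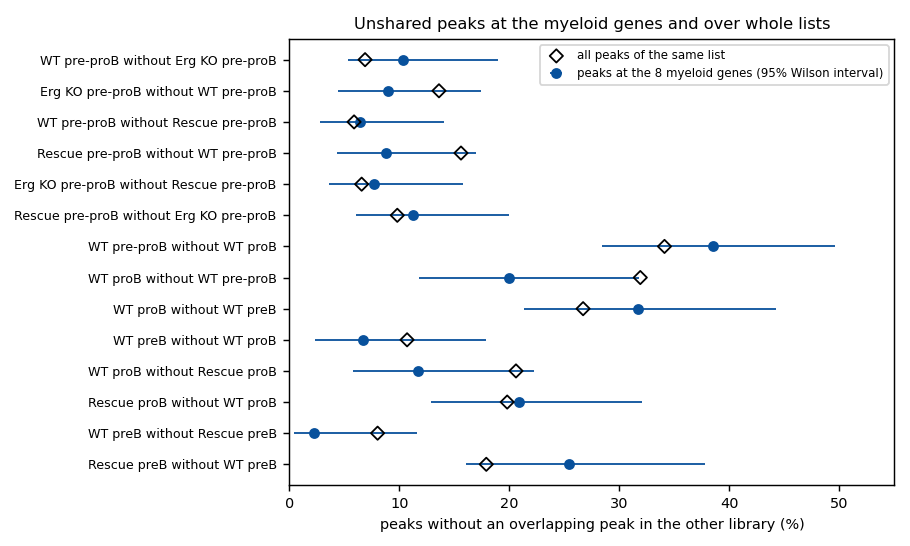
Percent of myeloid peaks of the library named first that had no overlapping peak in the library named second (blue points, bars are Wilson 95% intervals) beside the same percent over the whole list (open diamonds), for 14 directions of 7 library pairs. Blue points of the pre-proB pairs lie between 6.41% and 11.2%, and the highest is WT pre-proB without WT proB at 38.5%.

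Rescue libraries of the later titled stages were set beside WT to ask how far Erg-deficient cells with a rearranged heavy chain resembled it. At proB 7 of 60 WT peaks had no Rescue peak (11.7%, 5.77 to 22.2%), beside 20.6%, and 14 of 67 Rescue peaks had no WT peak (20.9%, 12.9 to 32.1%), beside 19.8%. At preB 1 of 45 WT peaks had no Rescue peak (2.22%, 0.393 to 11.6%), beside 8.02%, and 15 of 59 Rescue peaks had no WT peak (25.4%, 16.1 to 37.8%), beside 17.9%. With a reciprocal overlap of 50% the share of WT proB peaks without a Rescue peak was 23.3%. By source name the Rescue library called proB is another one, and 42.5% of its myeloid peaks had no WT proB peak, with no whole-list share given beside it. Rescue proB peaks by title without a WT partner numbered 6 at Itgam and 4 at Elane.

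Of the 65 myeloid regions held by all 3 pre-proB libraries, WT proB kept 40 (61.5%, 49.4 to 72.4%), beside 66.5% of all such regions, and WT preB kept 32 (49.2%, 37.5 to 61.1%), beside 60.0%. Rescue proB kept 46 (70.8%, 58.8 to 80.4%), beside 75.6%, and Rescue preB 38 (58.5%, 46.3 to 69.6%), beside 66.0%. Rescue proB thus kept more than WT proB at the myeloid genes and over the genome alike, with a background pileup of 3.49 against 4.42. There were 8 that Rescue proB kept and WT proB lacked, which were the region 18.1 kb downstream of Mpo, the Elane regions 10.7 kb downstream and 4.0 kb upstream, those 17.6, 18.8 and 42.8 kb downstream of the Itgam start site, the Itgax promoter, and the region 24.9 kb downstream of Gfi1. In the reverse direction there were 2, both weak and at Mpo. The shares of all such regions with either pattern are not given, so the 8 are not read as particular to the myeloid genes.

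Regions shared by WT and Rescue proB numbered 51, of which 3 were at least 2-fold higher in Rescue (5.88%), beside 5.19%, and none lower, beside 6.67%. They were the Cebpa region 20.4 kb upstream, with a centred log2 ratio of 1.75, the Gfi1 region 22.5 kb downstream, with 1.59, and the Itgam promoter, with 1.09. At preB 3 of 42 shared regions were higher in Rescue (7.14%), beside 2.2%, and none lower, beside 1.26%. Of these, 2 were at Cebpa, the promoter with 1.20 and the region 37.4 kb downstream with 1.26, and the other was the Plppr3 promoter region near Elane with 1.10. Depth moved with this comparison, as the background pileup of WT preB was 3.56 and that of Rescue preB 3.85, and its part in the result was not tested.

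Promoters gave a coarser picture. Of the 8 genes, 5 had a promoter peak in each of WT pre-proB, WT proB, WT preB, Erg KO pre-proB and Rescue preB, and 6 in Rescue pre-proB and Rescue proB. Over 21938 coding genes the share with a promoter peak was 63.3%, 65.5% and 61.4% in WT from pre-proB to preB, 64.2% in the Erg KO library, and 64.5%, 64.8% and 63.1% in Rescue in stage order. Cebpa, Cebpb, Itgam and Gfi1 were among 12886 coding genes (58.7%) with a promoter peak in all 7 libraries, so the presence of a peak hid the differences in fold given above. Elane was among 6837 (31.2%) with none. The pattern of Cebpe was that of 16 coding genes, the pattern of Lyz2 that of 119 and the pattern of Mpo that of 53, each count including the gene itself.

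Other myeloid genes were counted by promoter peak. All of 10 further myeloid regulators and cytokine receptor subunits, Spi1, Irf8, Cebpd, Cebpg, Runx1, Zeb2, Csf2ra, Csf2rb, Meis1 and Hoxa9, had a promoter peak in every library. Of 12 granulocyte genes, 2, 2 and 3 had a promoter peak in the WT, Erg KO and Rescue pre-proB libraries and 1 in each later library. Csf3r, the receptor of the granulocyte growth factor, was open in the 3 pre-proB libraries only, whereas Mmp8 was open in every library. Ltf had a peak in Rescue pre-proB alone, and Prtn3, Ctsg, Camp, Ngp, S100a8, S100a9, Lcn2, Fcnb and Ly6g were not open in any library. Of 12 monocyte and macrophage genes, 11 had a promoter peak in each pre-proB library, 8 and 9 in WT proB and preB and 10 and 8 in Rescue proB and preB. Adgre1 and Mrc1, which encode the macrophage proteins F4/80 and CD206, were open at pre-proB only, whereas Ccr2, a chemokine receptor of monocytes, had no promoter peak in any pre-proB library and had one in WT proB, WT preB and Rescue proB. The sort described in the methods took B220+ cells and left out cells with NK1.1 or CD11c, and the part of any remaining myeloid cells in these patterns was not tested.

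Short binding letters were counted within 100 bases of each summit, on both strands. The C/EBP letters TTGCNNCAA were in 3 of 98 myeloid regions (3.06%, 1.05 to 8.62%) and in 1.57% of all regions. They lay 7.4 kb downstream of Lyz2, at Itgax 71.2 kb from the Itgam start site, and in the Gfi1 intron 6.8 kb from its start site. The PU.1 letters GAGGAAGT were in 7 (7.14%, 3.5 to 14%), beside 7.19% of all regions, and the ETS letters ACCGGAAG or CAGGAAGT in 5 (5.1%, 2.2 to 11.4%), beside 5.99%. The PU.1 and ETS letters differ from each other and did not count the same site. RUNX letters were in 33 (33.7%, 25.1 to 43.5%), beside 25.6%, and E2A letters in 27 (27.6%, 19.7 to 37.1%), beside 20.1%. The GFI1 letters AATCNNNGC were in 4 (4.08%), beside 5.74%, and the EBF1 letters TCCCNNGGG in 7 (7.14%), beside 5.59%. None of the 17 regions held by the 3 pre-proB libraries alone had the C/EBP, PU.1 or ETS letters, against 1.87%, 8.06% and 4.07% of all 16647 such regions. At 17 regions these counts have wide intervals, with an upper bound of 18.4% for 0 of 17.

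The window edges were arbitrary. Of the 98 regions 5 had their summit past the edge. The nearest region outside lay between 0.11 kb past the edge at Cebpb and 27.1 kb past it at Lyz2. The strongest of them, 2.92 kb past the downstream edge at Cebpe, was in all 7 libraries with folds from 63.3 to 92.4, and that 7.7 kb past the downstream edge at Gfi1 had folds from 33.3 to 82.4.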

How the data were processed

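ATAC-seq was run on 7 libraries of sorted mouse B-lineage cells. Per the submitters' processing notes the authors used CASAVA 1.8.2, Bowtie2, Picard and MACS2 with the mm10 build, with options not given in the sources used here. Labels describe Tn5 tagmentation and the paper's methods sonication. Each deposited list gives for every peak a fold ratio over background, a −log10 p, a −log10 q, a summit offset and a score, which the authors' caller wrote as 10 times −log10 q, cut to a whole number (100.0% of peaks). Read totals are not in the lists, so depth is unknown and the background pileup, recovered from the steps of the fold, stands for it.

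Peaks were called per library. From them, union regions (merged at 1 bp overlap), percentiles of fold, overlap counts, Wilson 95% intervals and log2 fold ratios centred on all shared regions were computed with python 3.11.15, numpy 2.4.6 and pandas 2.3.3, and figures with matplotlib 3.10.9. The steps were tested on simulated data. Genes came from GENCODE M21, and sequence from GRCm38. Named regions were the promoter peaks, the region outside promoters with the highest percentile at each gene, and those 20 to 50 kb downstream of Cebpa. Others were chosen after seeing values, as was the centred 2-fold measure. Members and lists were chosen with earlier results of these data known. Alternatives were a −log10 q of at least 10, lists of equal length, a reciprocal overlap of 50%, other windows and Rescue stages by source name. Columns of other samples numbered 0.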

Additional observations from a re-analysis of the deposited data

Results flagged for a closer look

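At 7 regions the percentile of fold moved by at least 10 points in opposite directions in WT and Rescue between the same titled stages, with a missing peak set to 0. From pre-proB to proB, the Cebpa region 38.5 kb upstream changed by 25.7 points in WT and by -15.2 in Rescue, and the Cebpb region 3.5 kb upstream by -10.7 in WT and 10.3 in Rescue. Over the same step the Cebpe region 10.6 kb downstream changed by 10.3 in WT and -15.8 in Rescue, the Elane region 8.2 kb upstream by 11.0 and -10.8, and the Lyz2 promoter by 20.9 and -14.6. From proB to preB, the Cebpe promoter region changed by 33.0 in WT and -22.3 in Rescue, and the Lyz2 region 7.4 kb downstream by -36.6 in WT and 10.9 in Rescue. With 1 library per group these differences were not tested, and the folds involved were low, at most 10.9. The share of all regions that moved in this way is not given here, so the 7 cannot be set beside a background.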

How the results depend on the processing

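No paired analysis was possible because each group had 1 library. With the Rescue stages taken from source names, WT pre-proB peaks without a Rescue peak came to 43.6%, the reverse to 22%, Rescue proB peaks without a WT peak to 42.5%, regions in 1 or more pre-proB libraries and no later one to 5 and the reverse to 6. At a −log10 q of at least 10, Erg KO peaks without a Rescue pre-proB peak came to 1.67%, WT proB without preB to 10.3% and WT proB peaks to 39. With a reciprocal overlap of 50%, WT pre-proB without proB came to 60.3%, the reverse to 48.3% and WT proB without Rescue proB to 23.3%. Lists of equal length gave 20% for WT proB without preB. Regions in all 7 libraries numbered 19 when at least 50% of the region had to be covered. Gene bodies plus 5 kb held fewer peaks by construction, 31, 24 and 20 in WT, 30 in Erg KO and 34, 28 and 26 in Rescue, in stage order. With promoters of 2500 bp on either side all 8 genes had a peak in WT pre-proB. The values of this section are for the myeloid genes and have no share over whole lists or all regions beside them. The cause of the other moves was not tested. The shares of WT and Erg KO pre-proB peaks unshared with each other moved under none of these settings beyond their intervals. Weak peaks near the calling limit cannot be told from absent ones.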
